A study of Mus musculus with 5 samples.

Results

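The genes of the kinesin and dynein motors were examined in retrogradely labeled neurons of the mouse primary somatosensory area (S1). Members were chosen by symbol, as probe sets annotated with a single gene whose name marks it as a kinesin (*Kif*), a kinesin light chain (*Klc*), a cytoplasmic dynein subunit (*Dync*, *Dynl*) or a dynactin subunit (*Dctn*). The rule found 61 of 19938 genes, of which 43 carry kinesin or light chain symbols (including the pseudogene *Kif4-ps*), 12 dynein symbols and 6 dynactin symbols. Of these, 40 reached the median signal of all probe sets in at least 1 array and were compared (24, 10 and 6 genes of the 3 classes), beside 12632 genes of the whole platform that did so.

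Neurons came from ICR mice at postnatal day 24, collected 3 days after green fluorescent beads had been injected. Beads injected into the primary motor area (M1) labeled association neurons, and beads injected into S1 of the opposite hemisphere labeled callosal neurons. About 1000 labeled cells per group were cut out of sections by laser microdissection, and their amplified RNA was hybridized to Mouse Gene 1.0 ST arrays. The groups were association neurons of L6b, L5 and L2/3 and callosal neurons of L5 and L2/3, with 1 array each, so no value below has a replicate and no difference was tested. How many animals stood behind an array is not stated in the sources used here.

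Kinesins are motors that mostly walk toward the plus ends of microtubules, which in axons point to the synapse, and so carry vesicles, mitochondria and mRNA outward. Cytoplasmic dynein walks the other way and, with its activator dynactin, returns endosomes and signaling cargo to the soma. A neuron whose axon leaves its area depends on both systems, and human mutations in several of the genes cause axon degeneration.

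Signals are given as log2 signal minus the median of the array, so 0 is the median probe set and 1 is a 2-fold difference. The L6b difference is the L6b signal less the mean of those in the other 4 arrays. A gene was counted as apart in an array when it lay at least 2-fold above or below each of the other 4, which is a rule of size. Differences were compared between genes, but signals were not, because probe sets differ in how brightly they bind.

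Markers of L6b followed the label. All 8 measured L6b and subplate markers had their highest signal in L6b. Their mean was 2.58 in L6b against 0.10 to 0.32 in the others, and *Kcnab1* among them was picked by the study from these arrays. The mean of 9 L2/3 markers was 2.36 in association and 2.13 in callosal L2/3, against 0.22 to 1.17 elsewhere. Layer 5 markers were mixed, with a median L5 minus L2/3 of 0.04 in association and 0.36 in callosal neurons. *Pcp4* (2.13 and 2.81) and *Fezf2* (1.59 and 2.38) were higher in L5 in both. *Etv1* was lower there in association neurons (-1.10) and higher in callosal neurons (1.88), and *Rbp4* was higher in association (1.53) and lower in callosal neurons (-1.08). The other compared layer 5 markers differed by less than 2-fold. Other lists moved with L6b too. The mean of 10 glutamatergic genes was 2.72 in L6b against 3.38 to 3.92, and 5 of them were 2-fold below every other array there. The mean of 9 GABAergic genes was 0.84 against 1.93 to 2.42, with 2 genes 2-fold lower, and the mean of 9 myelin genes was 2.30 in L6b, 1.96 in L5 and 0.35 in L2/3 of association neurons, and 1.56 in L5 and 0.38 in L2/3 of callosal neurons. Over all compared genes the mean was 1.15 in L6b and 1.22 to 1.31 in the others, and over the 40 motor genes 2.06 and 2.29 to 2.40. The part of these lists in the motor values was not tested, and in a pool of cells fewer cells of a type cannot be told apart from less RNA per cell.

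Most motor genes differed by less than 2-fold over the arrays. The median range over the 5 arrays was 0.53 for the motor genes and 0.53 for all genes, and 18 of the 40 spanned less than 0.5. A range of 2-fold or more was found in 10 of 40 motor genes (25.0%), against 29.5% of all genes. The L6b array held most of the genes that stood apart. There, 4 of 40 motor genes (10%) were at least 2-fold below each of the other arrays, against 2.82% of all genes, and 0 were 2-fold higher, against 1.26%. The 4 genes were *Dynll2*, *Kif5a*, *Kif3a* and *Dync1i2*, a dynein light chain, a kinesin-1 heavy chain, a kinesin-2 subunit and a dynein intermediate chain. The remaining 36 genes had a median L6b difference of -0.10, near the -0.06 of all genes.

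**Figure D1:**
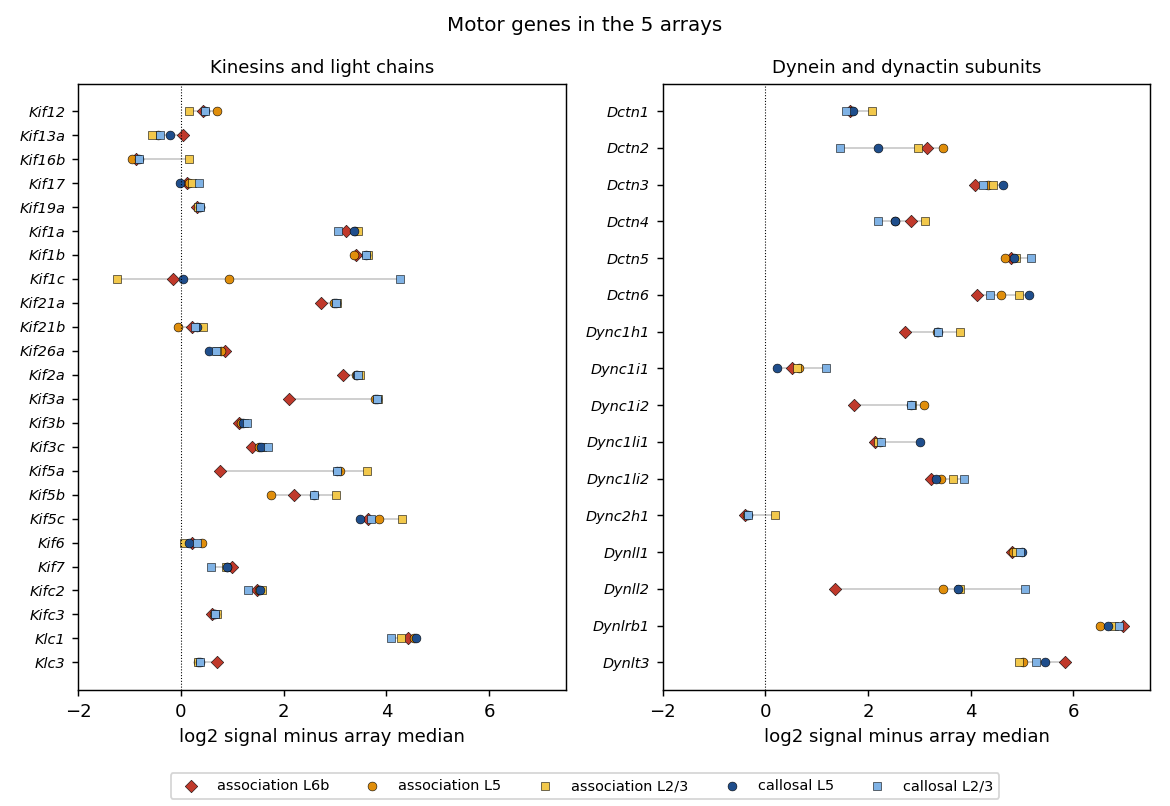
Signal of the 40 compared motor genes in each array, as log2 signal minus the array median on the x axis, with 1 point per array and a gray line over the range. The L6b diamonds of *Dynll2*, *Kif5a*, *Kif3a* and *Dync1i2* lie at 1.35, 0.76, 2.10 and 1.73, left of all their other points, and *Kif1c* has the widest line (5.50).

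Promoter windows from RefSeq (GRCm38.p6) are shown for *Kif3a* and *Dync1i2*, which were lower in L6b, and for *Dctn2*, which differed between projections in both layers. No window was available for *Dynll2* or *Kif5a*, and the 54 motor gene windows covered 47 of the 61 genes. Each window holds 250 bases before and 50 after an annotated start, 5′ to 3′ on the plus strand. The capitals mark GGGCGG (GC box), CCAAT, GCGCATGC (NRF1 core) and ACTACANNTCCC (ZNF143-type), searched on both strands. The windows are those of *Kif3a* at chr11:53567119-53567418, of *Dync1i2* at chr2:71211456-71211755 (the first of its pair of windows) and of *Dctn2* at chr10:127266012-127266311.
Kif3a: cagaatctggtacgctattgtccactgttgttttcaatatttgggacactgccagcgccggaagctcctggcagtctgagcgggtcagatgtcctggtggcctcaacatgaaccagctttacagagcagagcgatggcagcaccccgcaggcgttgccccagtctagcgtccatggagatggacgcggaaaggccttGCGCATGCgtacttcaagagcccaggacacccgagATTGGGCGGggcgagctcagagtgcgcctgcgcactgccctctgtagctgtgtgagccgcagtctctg
Dync1i2: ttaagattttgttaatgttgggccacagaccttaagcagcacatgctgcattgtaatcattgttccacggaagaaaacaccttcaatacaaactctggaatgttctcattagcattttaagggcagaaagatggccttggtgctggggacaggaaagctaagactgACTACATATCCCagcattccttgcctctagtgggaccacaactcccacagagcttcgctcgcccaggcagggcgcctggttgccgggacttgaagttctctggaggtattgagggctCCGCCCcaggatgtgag
Dctn2: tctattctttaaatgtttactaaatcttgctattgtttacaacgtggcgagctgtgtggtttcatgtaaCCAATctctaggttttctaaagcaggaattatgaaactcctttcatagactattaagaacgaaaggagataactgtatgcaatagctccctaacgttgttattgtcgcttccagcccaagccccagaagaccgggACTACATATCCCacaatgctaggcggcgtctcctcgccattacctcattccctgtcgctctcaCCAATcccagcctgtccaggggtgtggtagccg

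In *Kif3a* a CCAAT box on the minus strand (ATTGG) runs into a GC box. The same ACTACANNTCCC match, with the same letters in the free places, is in *Dync1i2*, which was lower in L6b, and in *Dctn2*, whose L6b difference was 0.63. It was found in 5 of 54 motor gene windows (9.26%), those of *Dctn2*, *Dync1h1*, *Dync1i2*, *Kif3c* and *Kif5c*, against 1.81% of 32851 windows of all genes, and it was searched for after the letters had been seen. GC boxes were in 36 of the 54 windows (66.7%), against 35.7%, and CCAAT in 22 (40.7%), against 37.4%. The NRF1 core was in 3, against 2.71%. TATAAA and TGACGTCA (CRE) were also searched and were in 5 windows each, against 13.6% and 1.79%. These matches describe letters in a window, and no relation to the signals was tested.

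Among the kinesin-1 heavy chains, which drive fast anterograde transport, *Kif5a* is neuron-specific and its human mutations cause spastic paraplegia. Its signal was 0.76 in L6b, 3.10 in L5 and 3.62 in L2/3 of association neurons, and 3.03 in L5 and 3.03 in L2/3 of callosal neurons. The L6b array thus stood alone, and L6b minus the next lowest array was -2.27. The L6b difference was -2.44, or 5.41-fold lower, the rank of 95 from the lowest among 12632 genes.

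*Kif5b*, the heavy chain found in most cell types, had signals of 2.20 in L6b, 1.75 in L5 and 3.01 in L2/3 of association neurons, and 2.59 in both callosal arrays. Its lowest array was association L5, so L6b (difference -0.29) lay inside the range of the others. *Kif5c*, the other neuronal heavy chain, measured 3.65 in L6b, 3.85 in L5 and 4.31 in L2/3 of association neurons, and 3.49 in L5 and 3.70 in L2/3 of callosal neurons. Its L6b difference was -0.19, and callosal L5 was lowest. Of the 3 heavy chains, *Kif5a* alone met the 2-fold rule in L6b. The light chain *Klc1*, which links kinesin-1 to cargo, measured 4.42 in L6b, 4.53 in L5 and 4.29 in L2/3 of association neurons, and 4.57 in L5 and 4.08 in L2/3 of callosal neurons, and had an L6b difference of 0.05.

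*Kif3a* pairs with *Kif3b* or *Kif3c* in kinesin-2 motors, which carry vesicles in axons and build cilia. It measured 2.10 in L6b, 3.78 in L5 and 3.84 in L2/3 of association neurons, and 3.81 in both callosal arrays. The deposited values were 7.90 in L6b and 9.55 in each of the other 4, an equality that subtracting medians turned into small differences. The L6b difference was -1.71, or 3.27-fold lower.

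The partner *Kif3b* did not share it. Its signals were 1.12 in L6b, 1.17 in L5 and 1.22 in L2/3 of association neurons, and 1.20 in L5 and 1.29 in L2/3 of callosal neurons, with an L6b difference of -0.10. *Kif3c* and the homodimeric kinesin-2 *Kif17* had L6b differences of -0.21 and -0.05. The small differences of *Kif3b* and *Kif17* changed sign with the 75th percentile subtracted. *Kifap3*, which joins kinesin-2 to cargo, was 3.48 in L6b against 4.05 to 4.12, a difference of -0.60.

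In the kinesin-3 family, *Kif1a*, the carrier of synaptic vesicle precursors, measured 3.22 in L6b, 3.38 in L5 and 3.44 in L2/3 of association neurons, and 3.36 in L5 and 3.06 in L2/3 of callosal neurons. *Kif1b*, which carries mitochondria and vesicle precursors, measured 3.40 in L6b, 3.36 in L5 and 3.64 in L2/3 of association neurons, and 3.61 in both callosal arrays. Neither spanned 0.5 over the 5 arrays.

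Among dynein subunits, *Dynll2* encodes an LC8 light chain, a small dimer that binds many proteins and is also a light chain of myosin V. Its signal was 1.35 in L6b, 3.45 in L5 and 3.79 in L2/3 of association neurons, and 3.76 in L5 and 5.06 in L2/3 of callosal neurons. Association L2/3 and callosal L5 shared a deposited value of 9.5. *Dynll2* was lowest in L6b and highest in callosal L2/3, each at least 2-fold apart from all other arrays. The L6b difference was -2.66, or 6.34-fold lower, the rank of 62 from the lowest among 12632 genes.

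Its paralog *Dynll1* had signals of 4.80 in L6b, 4.83 in L5 and 4.89 in L2/3 of association neurons, and 5.00 in L5 and 4.95 in L2/3 of callosal neurons. These spanned 0.20, so the LC8 genes differed in how far L6b lay from the rest.

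*Dync1i2* encodes an intermediate chain, the subunit by which dynein holds dynactin. Its signal was 1.73 in L6b, 3.09 in L5 and 2.86 in L2/3 of association neurons, and 2.83 in both callosal arrays. The deposited value was the same, 8.57, in association L2/3 and both callosal arrays, so these 3 are not distinct readings. L6b lay at least 1.10 below each, and the L6b difference was -1.17, or 2.25-fold. This was the call nearest the 2-fold bound, and it was lost under quantile normalization (L6b minus association L2/3 of -0.87) and under scaling to the 75th percentile (-0.97).

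The other intermediate chain, *Dync1i1*, is mainly neuronal. It measured 0.52 in L6b, 0.65 in L5 and 0.62 in L2/3 of association neurons, and 0.22 in L5 and 1.19 in L2/3 of callosal neurons, so that the callosal arrays were its extremes. *Dync1h1*, the heavy chain that holds the motor domain, measured 2.72 in L6b, 3.34 in L5 and 3.79 in L2/3 of association neurons, and 3.37 in both callosal arrays. The deposited value was 9.11 in association L5 and in both callosal arrays. *Dync1h1* was lowest in L6b (difference -0.75), but only association L2/3 was 2-fold away.

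Of the other compared light chains, *Dynlt3* and *Dynlrb1* had their highest signal in L6b. *Dynlt3*, a Tctex-type light chain, measured 5.83 in L6b, 5.01 in L5 and 4.94 in L2/3 of association neurons, and 5.45 in L5 and 5.27 in L2/3 of callosal neurons. Its L6b difference of 0.66 (1.58-fold) was the highest of the 40 genes. *Dynlrb1*, a roadblock-type chain, measured 6.97 in L6b, 6.51 in L5 and 6.78 in L2/3 of association neurons, and 6.67 in L5 and 6.88 in L2/3 of callosal neurons.

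The 6 dynactin genes all reached the array median, as did 12632 of 19938 genes of the platform. In L6b 0 of 6 met the 2-fold rule, against 2.82% of all genes lower and 1.26% higher, shares too small to set 6 genes apart. *Dctn1*, the large subunit that touches microtubules and dynein, measured 1.65 in L6b, 1.68 in L5 and 2.08 in L2/3 of association neurons, and 1.71 in L5 and 1.57 in L2/3 of callosal neurons. *Dctn6*, a subunit of the pointed-end complex, was lowest in L6b with 4.12, against 4.59 in L5 and 4.93 in L2/3 of association neurons, and 5.13 in L5 and 4.38 in L2/3 of callosal neurons, a difference of -0.64. *Dctn3* and *Dctn5* had L6b differences of -0.31 and -0.10, and *Dctn4* had one of 0.25. That of *Dctn5* changed sign with the 75th percentile subtracted.

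**Figure D2:**
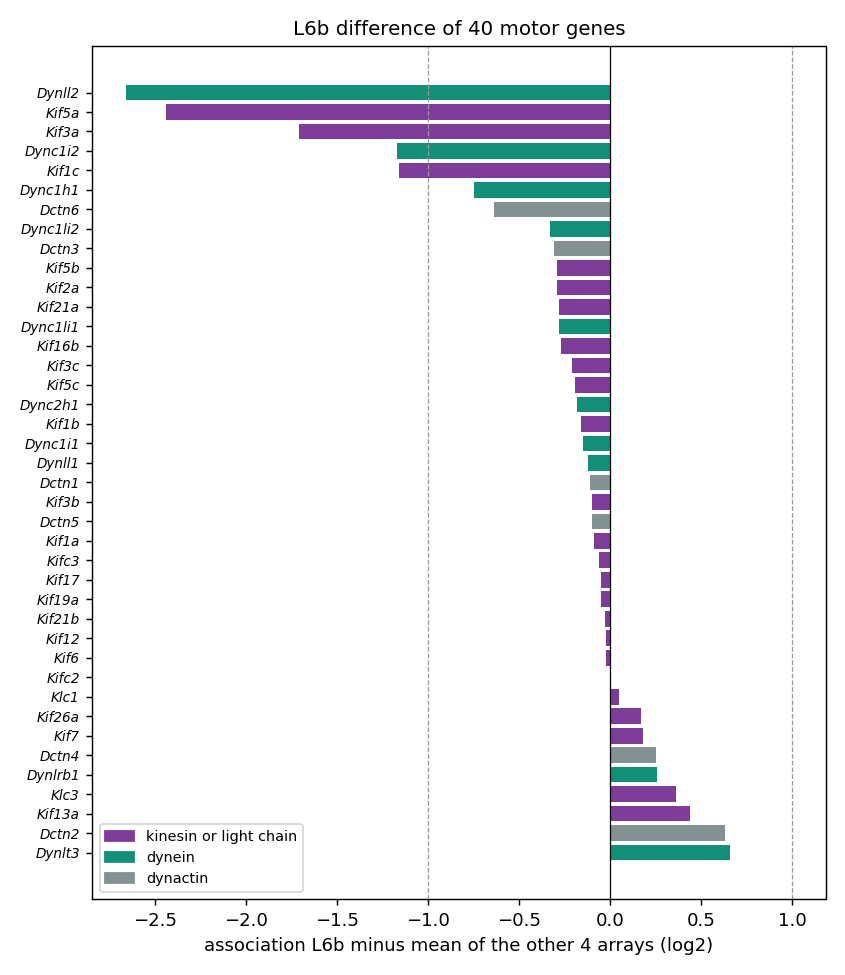
Bars of the L6b difference (log2) for the 40 compared genes, colored by class, with dashed lines at 2-fold. The bars run between -2.66 (*Dynll2*) and 0.66 (*Dynlt3*), and *Kif1c* (-1.16) passes the line without being 2-fold below each array.

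By class, the median L6b difference was -0.08 for kinesins and light chains, -0.23 for dynein and -0.11 for dynactin. Of the 40 genes, 31 (77.5%) had an L6b difference below 0, against 62.8% of all genes, and 31 (77.5%) lay within 0.5 of 0, against 78.7%. The share below 0 moved with the scaling, to 24 of 40 (60%) against 46.7% as deposited, 27 (67.5%) against 50.6% under quantile normalization and 21 (52.5%) against 37.7% with the 75th percentile subtracted. L6b was the lowest array for 17 of 40 genes (42.5%), against 31.9% of all genes. As deposited, without subtracting medians, this was 12 of 40 (30%) against 17.4%.

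Within association neurons, L6b was 2-fold lower than L5 for 5 of 40 motor genes (12.5%), against 7.16% of all genes, and 2-fold higher for 0, against 3.5%. The 5 were *Kif5a* (-2.34), *Dynll2* (-2.10), *Kif3a* (-1.68), *Dync1i2* (-1.36) and *Kif1c* (-1.10). L6b was 2-fold lower than L2/3 for 6 of 40 (15%), against 10.6%, and higher for 1, against 2.83%. The 6 were *Kif5a* (-2.86), *Dynll2* (-2.44), *Kif3a* (-1.74), *Dync1i2* (-1.13), *Dync1h1* (-1.07) and *Kif16b* (-1.02), and the higher gene was *Kif1c* (1.08). *Kif16b* reached the median only in association L2/3, and a filter at the 75th percentile left 6 instead of 7 genes apart here. As deposited, *Dync1h1* (-0.98) and *Kif16b* (-0.93) fell short of 2-fold. *Dync1h1* also did so under quantile normalization (-0.84) and with the 75th percentile subtracted (-0.91), and *Kif16b* did under the latter (-0.86). Each of these 3 scalings gave 5 instead of 7 genes apart between L6b and L2/3.

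Between association and callosal neurons, *Dctn2* was the gene that differed 2-fold in the same direction in both layers, 1 of 40 motor genes against 0.8% of all genes. *Dctn2* encodes dynamitin, which anchors the dynactin arm and, in excess, takes the complex apart. It measured 3.15 in L6b, 3.45 in L5 and 2.97 in L2/3 of association neurons, and 2.19 in L5 and 1.45 in L2/3 of callosal neurons. All 3 association arrays were above both callosal arrays. The difference was 1.26 in L5 and 1.52 in L2/3. Over the scalings tried it lay between 1.26 and 1.32 in L5 and between 1.46 and 1.52 in L2/3. The other settings could not move it, as *Dctn2* has 1 probe set.

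In L2/3, 1 motor gene was 2-fold higher in association than in callosal neurons (*Dctn2*, against 5.07% of all genes) and 2 were lower (*Kif1c* and *Dynll2*, against 3.48%). In L5, 1 was higher (*Dctn2*, against 3.49%) and 0 were lower, against 4.97%. *Dynll2* was lower in association L2/3 than in callosal L2/3 by a log2 difference of -1.27, while in L5 the difference was -0.31. *Dctn4*, another pointed-end subunit, measured 2.84 in L6b, 2.52 in L5 and 3.10 in L2/3 of association neurons, and 2.53 in L5 and 2.20 in L2/3 of callosal neurons. Its projection difference was thus seen in L2/3 and not in L5, and did not reach 2-fold.

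**Figure D3:**
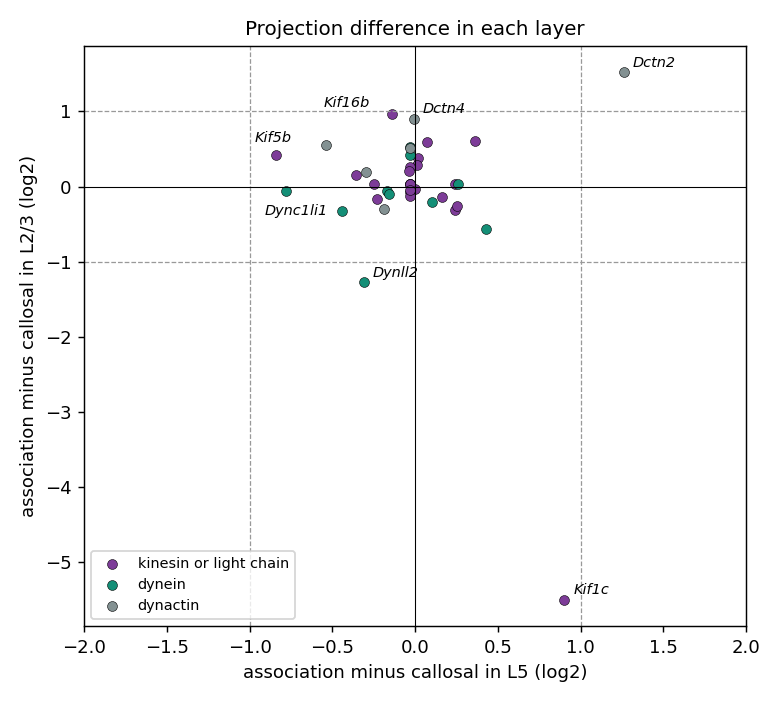
Association minus callosal signal (log2) in L5 on the x axis and in L2/3 on the y axis, 1 point for each of the 40 motor genes, with dashed lines at 2-fold. *Dctn2* lies alone in the upper right corner (1.26 and 1.52), and *Kif1c* lies far below the rest (0.90 and -5.50).

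*Kif5a* and *Dctn2* are neighbors on chromosome 10, and their annotated spans overlap by 87 bases in RefSeq (GRCm38.p6). Their patterns differed, since *Kif5a* was low in L6b alone and *Dctn2* was low in the callosal arrays. The position of either probe set was not used here, and whether any probe lies in the shared bases was not tested.

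*Kif1c*, a kinesin-3 that carries dense-core vesicles and mRNA, varied most. It measured -0.16 in L6b, 0.94 in L5 and -1.24 in L2/3 of association neurons, and 0.04 in L5 and 4.26 in L2/3 of callosal neurons. Callosal L2/3 was far above the rest and association L2/3 was 2-fold below each. A second probe set of the gene measured 0.02, 0.11, 0.01, 0.08 and 0.78 in the same arrays. It put the same array highest, but its range was 0.77 instead of 5.50, so the size of the *Kif1c* differences rests on 1 probe set.

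Each other array held few motor genes apart from the rest. Association L5 had 0 of 40, against 2.14% of all genes, and association L2/3 had 1 (*Kif1c*, lower), against 2.49%. Callosal L5 had 0, against 1.66%, and callosal L2/3 had 2 (*Kif1c* and *Dynll2*, higher), against 2.12%.

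Between layers, 1 motor gene was 2-fold higher in L5 than in L2/3 of association neurons (*Kif1c*, against 3.48% of all genes) and 2 were lower (*Kif5b* and *Kif16b*, against 7.36%). *Kif5b* differed by -1.26. *Kif16b*, which moves early endosomes, measured -0.87 in L6b, -0.95 in L5 and 0.15 in L2/3 of association neurons, and -0.81 in both callosal arrays. Association L2/3 was its only array above 0, so it was compared only through the array it was called against. With the filter at the 75th percentile, 2 instead of 3 motor genes were 2-fold apart between L5 and L2/3 of association neurons. In callosal neurons 0 were higher in L5, against 4.08%, and 2 were lower (*Kif1c* and *Dynll2*, against 4.52%), with a difference of -1.30 for *Dynll2*. Between L5 and L2/3, 0 of 40 motor genes differed 2-fold in the same direction in both projections, against 1.46% of all genes.

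Of the 61 motor genes 21 (34.4%) lay below the median in all 5 arrays, against 36.6% of all genes. They comprised 19 of the 43 kinesins and light chains (44.2%), among them *Kif11*, *Kif15*, *Kif18a*, *Kif20b*, *Kif22*, *Kif23*, *Kif2c* and *Kif4*, which act on the mitotic spindle or in cytokinesis. The pseudogene *Kif4-ps* was also among the 19, and the other 2 of the 21 were *Dync2li1* and *Dynlrb2*. Of 11 mitotic genes outside the family, 5 reached the median in some array, against 12632 of 19938 genes of the platform. Those 5, which the filter picked, had mean signals of 0.09 in L6b and -0.01 to 0.14 in the others. Just inside the bound lay *Kif13a* (0.03 in its highest array) and *Kif16b* (0.15), and just outside lay *Kif26b* (-0.04) and *Kif9* (-0.13).

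Genes that motors work with were read from 4 lists of adaptors, tubulins, microtubule-associated proteins and tubulin-modifying enzymes. Of their 81 compared genes, 7 (8.64%) were 2-fold lower in L6b by the same rule, against 2.82% of all genes. Only 1 of the 81 was higher, near the 1.26% of all genes. Among 32 cargo adaptors and regulators (median L6b difference -0.10) 1 was lower, the capping protein *Capzb*, a dynactin filament component, at 1.85 in L6b against 3.05 to 3.70. *Kidins220* (-1.07) and *Nudc* (-0.97) followed and did not meet the rule.

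Among 10 tubulins (median -0.39) the nucleating gamma-tubulin *Tubg1* was lower, at -0.17 in L6b against 1.07 to 1.71. The alpha-tubulins *Tuba4a* and *Tuba8* had differences of -0.87 each. Among 25 microtubule-associated proteins and stathmins (median -0.12) 2 were lower, *Map9* (-1.85) and the plus-end binder *Mapre3* (-1.27), and *Map7d2*, of a family that recruits kinesin-1, had -0.98.

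The tubulin-modifying enzymes had the lowest median, -0.52 over 14 genes, and 3 were lower. The polyglutamylase *Ttll7* measured 0.54 in L6b against 3.66 to 4.25, the severing-protein gene *Katnal1* measured -0.19 against 1.88 to 2.70, and *Ttll1*, of a second polyglutamylase, differed by -1.92. *Atat1*, the alpha-tubulin acetyltransferase, was the 1 higher gene, at 1.79 in L6b against 0.23 to 0.60, and was picked out after its values were seen.

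**Figure D4:**
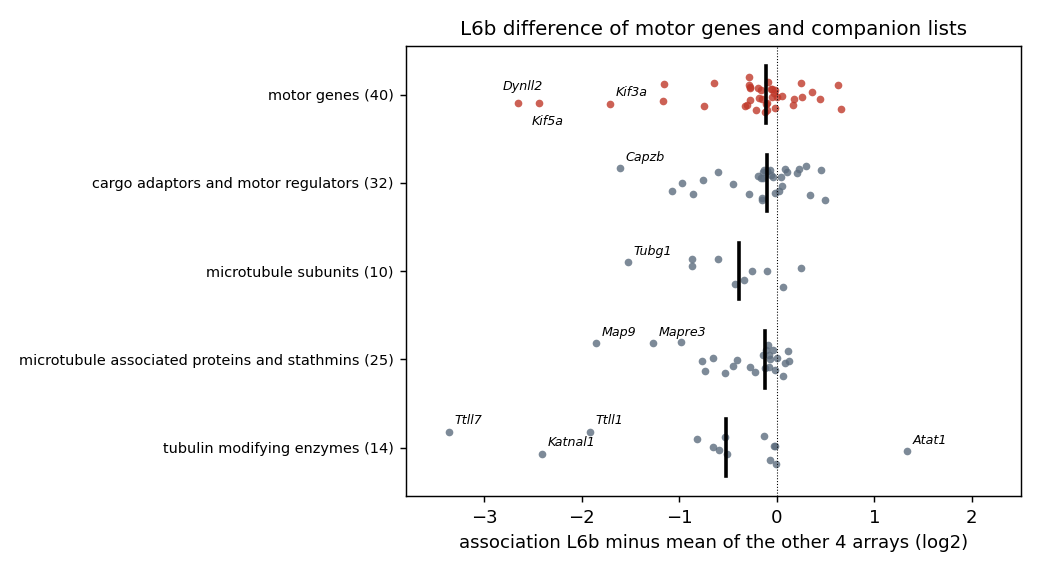
L6b difference (log2, x axis) for motor genes and the 4 companion lists, 1 point per gene with the number of genes in parentheses, spread vertically for legibility and with the list median as a black bar. *Ttll7* (-3.36) and *Atat1* (1.34) are the outermost points, and the medians lie between -0.52 and -0.10.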

How the data were processed

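Labeled neurons of 5 groups were profiled with 1 array each. The deposited values are log2 signals of probe sets, in 1 table, with 2 decimals between 1.11 and 14.2. The submitters' processing notes name Affymetrix Expression Console, whose version was not stated in any source used here. The methods describe a log transformation, a global normalization and a centering of the signals. How the probes were summarised is not stated, and the table holds signals that are not centered per gene. Equal values are frequent: at least 2 arrays share a value in 27 of the 40 compared motor genes (67.5%) and in 66.7% of all genes, and at least 4 arrays do in 12.5% and 11.7%. When exactly 2 arrays share a value, it is the median of the 5 in 94.4% of genes. How the ties arose was not tested.

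Array medians (5.80 in L6b, 5.77 and 5.71 in association L5 and L2/3, 5.74 in both callosal arrays) were subtracted. Probe sets with several symbols were left out, and the probe set with the highest mean stood for a gene. Of the motor genes 55 had 1 probe set and 6 had 2. *Klc2* was not analysed here. All 61 symbols matched RefSeq by Entrez identifier. Genes reaching 0 in some array were compared. Without replicates no test was made, and the number of arrays limits the precision.

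Named genes were the 12 motor genes with the widest range, the 8 with the highest mean, those 2-fold apart in an array or in both contrasts of a kind, chosen core subunits, and the 3 largest L6b differences of each companion list. *Kif3c*, *Kif17*, *Kifap3* and *Atat1* were added after their values were seen. The members and lists were chosen with earlier results of these data known. Alternatives were values as deposited, quantile normalization, scaling to the 75th percentile, other filters, the mean of probe sets, a 4-fold bound and leaving out each other array. The 2-fold rule and the L6b difference were tested on simulated signals with normal noise and no ties, unlike the data. The other steps were not simulated. Python 3.11.15, pandas 2.3.3, numpy 2.4.6 and matplotlib 3.10.9 were used.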

Additional observations from a re-analysis of the deposited data

Results flagged for a closer look

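*Kif1c* moved in opposite directions between layers in the 2 projections. L5 minus L2/3 was 2.18 in association neurons and -4.22 in callosal neurons, on the log2 scale. The difference was not tested, because each group has 1 array. The second probe set of the gene gave 0.10 and -0.70 for the same contrasts, a choice looked at after seeing the data.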

How the results depend on the processing

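Each difference of a gene that passed 2-fold kept its direction under every alternative run, but not always a size of 2-fold. Filters and the 4-fold bound cannot alter such a difference. Among these genes the mean of probe sets can alter only those of *Kif1c*, since the others have 1 probe set. Leaving out an array bears only on L6b differences, so for most of them only the scalings could have changed the direction. For the second *Kif1c* probe set the direction means little, with L6b minus L5 of -0.09 and L6b minus L2/3 of 0.01 in association neurons. Of the 40 L6b differences, 6 changed sign as deposited, 4 under quantile normalization and 10 under scaling to the 75th percentile, all of them within 0.11 of 0, *Kif3b*, *Kif17* and *Dctn5* among them. The remaining small differences between pairs of arrays were not recomputed. A 4-fold bound in place of 2-fold left 2 motor genes lower in L6b (*Dynll2* and *Kif5a*), 3 instead of 7 calls of a gene apart in an array (3 and 5 genes), 1 instead of 3 between association and callosal neurons in L2/3 and 0 instead of 1 in L5. It left 1 instead of 3 between L5 and L2/3 of association neurons, 1 instead of 2 in callosal neurons, and 2 instead of 5 and 2 instead of 7 between L6b and L5 or L2/3. Quantile normalization and scaling to the 75th percentile each left 3 genes lower in L6b, without *Dync1i2*. The 4 genes were kept with values as deposited. They were also kept with the mean of probe sets, under other filters and without any 1 of the other arrays. Those settings could not have dropped them. Each of the 4 has 1 probe set and a signal well above the filters, and leaving out an array only loosens the rule. The L6b difference of *Kif1c* was -1.16, and was -0.07 without callosal L2/3 and -0.69 with the mean of probe sets. The number of compared genes was 61 without a filter and 28 with a filter at the 75th percentile. No paired analysis was possible because each group holds 1 array, with no replicate numbers to pair, and the projection differences are therefore given within each layer.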

Other observations

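Probe sets shared by several motor genes were kept out of the counts. A pair of probe sets common to *Dynlt1a*, *Dynlt1b*, *Dynlt1c* and *Dynlt1f*, near-identical Tctex-type dynein light chain genes, had L6b differences of -2.41 and -2.47. The first measured 1.31 in L6b, 2.22 in L5 and 4.27 in L2/3 of association neurons, and 4.59 in L5 and 3.80 in L2/3 of callosal neurons. Both association L6b and association L5 were thus at least 2-fold below the remaining 3 arrays. Which of the genes gave the signal cannot be told from these probe sets. A probe set common to *Kifc1* and *Kifc5b* had a difference of 0.35.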
